A study of Bos taurus with 8 samples.

Results

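Genes that mark T cells or carry their receptor signal were examined in the lymphocyte and monocyte fraction of blood (peripheral blood mononuclear cells) of 3 groups of cows. The genes came from a list of 36 symbols of known T cell function, and all probes whose accession belongs to a listed symbol were taken. Of the 36 genes, 33 had a probe. CD6, BCL11B and IL2RB had none that matched. The 33 genes had 65 probes, of which 59, from 30 genes, passed a filter that asked for a signal well above background on all arrays of 1 group or more, so that 30 of the 15137 genes tested are listed T cell genes. CTLA4, TRAT1 and FOXP3 had probes that did not pass this filter. CTLA4 was well above background on both lame R2 arrays for 1 probe and on lame R2_2 alone for the other, TRAT1 on lame R2_2 alone, and FOXP3 on none of the 8 arrays.

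The groups were lame crossbred cows, normal crossbred cows and normal cows of the Tharparkar breed, an Indian zebu. The labels of these groups give no age, cause of lameness or crossbred parentage. Cy3-labelled total RNA was put on 8 Agilent bovine arrays, 1 dye to an array: 4 lame crossbred arrays (R1_1, R1_2, R2_1 and R2_2), 2 normal crossbred arrays (R1 and R2) and 2 normal Tharparkar arrays (R1 and R2). RNA was run in technical duplicate per the labels' protocols, and correlations between arrays point to 4 RNA samples: lame R1 and lame R2, each from its pair of arrays, and a single sample for each normal group. Across genes, arrays of 1 RNA sample correlated at 0.981 to 0.997 and arrays of different RNA samples at 0.931 to 0.970. Whether a sample is of 1 cow or a pool of cows is not stated. Each normal group is therefore 1 RNA sample, and the p-values, which rest on array-to-array spread, overstate the evidence as a comparison of animals.

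A T cell recognises peptide through its antigen receptor, whose signal is carried into the cell by the CD3 chains and the zeta chain CD247. The coreceptors CD4 and CD8 bring the kinase LCK to the receptor, LCK and FYN phosphorylate the CD3 and zeta chains, ZAP70 docks on them and phosphorylates the adaptor LAT, and costimulatory receptors such as CD28 and ICOS add to the signal. In cattle a large share of blood T cells, especially in young animals, carries a gamma-delta receptor, and many of these cells bear WC1 proteins on their surface.

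A level is the log2 processed signal relative to the array's 75th percentile, so that 0 is a signal at that percentile. Between 52.8% and 61.4% of all probes were well above background on 7 arrays, and 70.9% on lame R2_2, which was also the brightest array, its raw signal having a median of 192.5 where the other arrays had 74.0 to 102.0. For 28 of the 30 listed genes the probe used was well above background on all 8 arrays, the CD3 chains included. For the listed genes the median gap between duplicate arrays was 0.15 for lame R1, 0.11 for lame R2, 0.16 for normal crossbred and 0.11 for normal Tharparkar. The median gap between the lame R1 and lame R2 means was 0.50 for the listed genes and also 0.50 over all genes.

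The listed genes stood highest in the normal crossbred RNA sample and lowest in the normal Tharparkar RNA sample, with the lame samples mostly between them. The normal crossbred mean was the highest of the 4 RNA means for 21 of 30 genes, where it was so for 23.0% of all genes. The normal Tharparkar mean was the lowest for 19 of 30 genes (29.7% of all genes). CD28, which passed the filter only through normal crossbred, is among these. Both lame means lay between the 2 normal means, in that order, for 16 of 30 genes (9.98% of all genes). These 16 include CD3D, CD3E, CD3G and CD247, CD4, CD8B, the kinases LCK and FYN, and the receptor IL7R. CD5 and CD69 went against this order and were highest in normal Tharparkar.

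**Figure D1:**
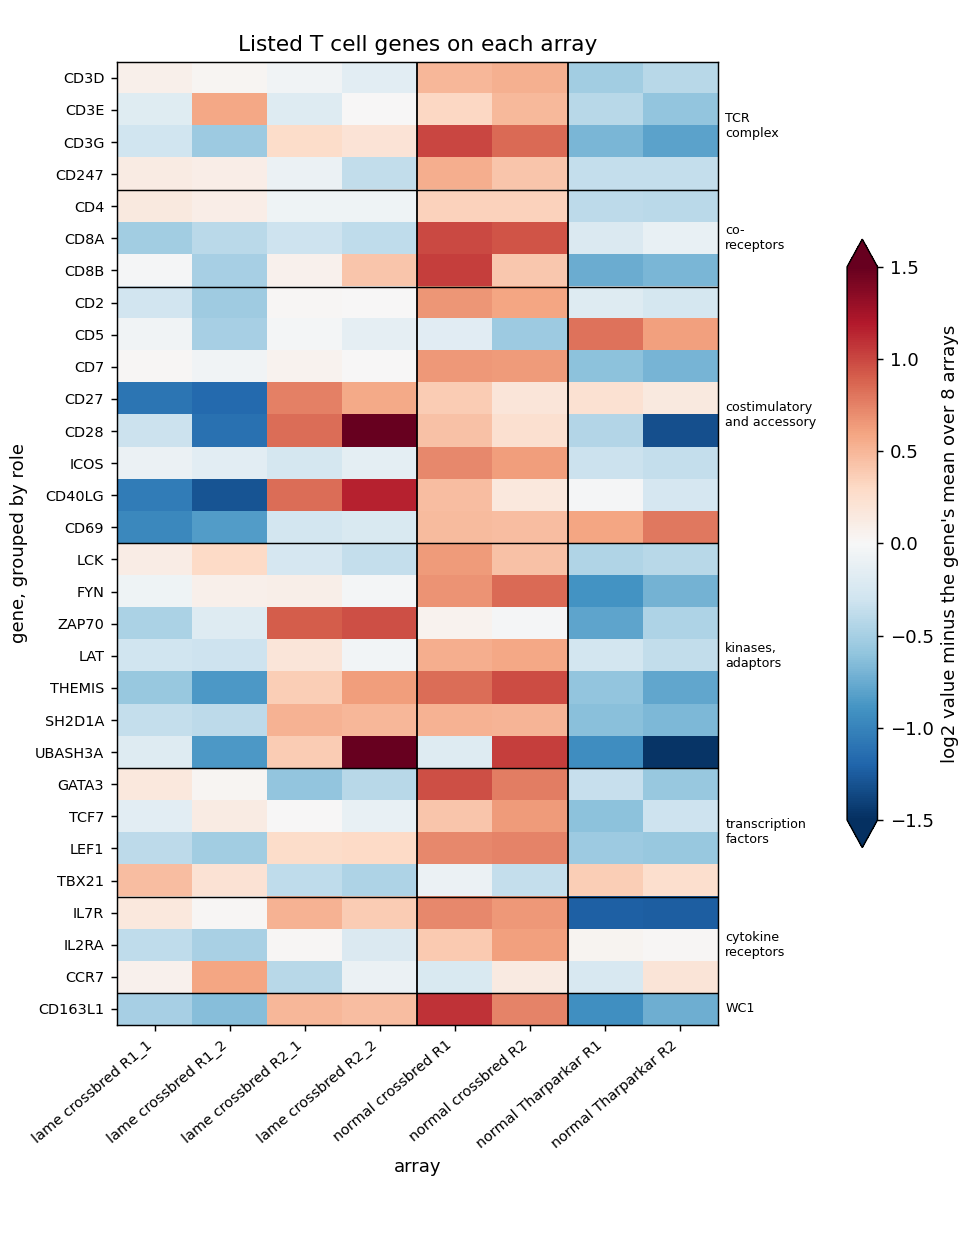
Level of the 30 listed T cell genes (rows, grouped by role) on each of the 8 arrays (columns), as the log2 value minus the gene's mean over the 8 arrays, with colours capped at 1.5 either way. Most rows are red in the 2 normal crossbred columns and blue in the 2 normal Tharparkar columns, and CD27, CD28, CD40LG and ZAP70 change colour between the lame R1 and lame R2 columns.

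The groups give 3 comparisons. They share arrays, since each group enters 2 of them, so they are not independent and their values are set side by side only. A gene is said to have risen or fallen where limma's moderated test, in 1 fit of all 8 arrays, gave a Benjamini-Hochberg adjusted p under 0.05 over the 15137 genes.

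Lame crossbred against normal crossbred asks what differs with lameness within crossbred cows. Of the 30 listed genes, 10 fell and 0 rose: CD8A, GATA3, CD69, CD3G, ICOS, CD2, IL2RA, FYN, CD7 and CD3D. The background was 6.33% of all genes lower and 3.28% higher. At an unadjusted p under 0.05 in limma, 20 listed genes were lower and 0 higher, where 15.7% of all genes were lower and 10.1% higher. The median log2 fold change was -0.58 against -0.04 over all genes, with -0.57 within slide 1 and -0.58 within slide 2, and 26 of 30 values were below 0. All lame arrays lay below both normal crossbred arrays for 19 genes, where this held for 23.1% of all genes. With slide as a block, 4 of the 10 calls held (CD7, CD8A, FYN and ICOS). Without normal crossbred R1 or without normal crossbred R2 the number of calls was 1 (CD8A), without either Tharparkar array it was 2 (CD8A and ICOS), and without lame R1_1 or lame R1_2 it was 5. Calls over all genes also dropped in these fits, from 9.61% to between 1.18% and 7.85%.

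Normal crossbred against normal Tharparkar asks what differs between the types of cow without lameness. Of the 30 listed genes, 17 rose and 1, CD5, fell in normal crossbred, against a background of 11.8% higher and 6.88% lower. The median was 0.99 against 0.01 over all genes, with 0.96 within slide 1 and 0.97 within slide 2. Both normal crossbred arrays lay above both Tharparkar arrays for 25 genes (41.7% of all genes). These include CD28, whose probe passed the filter only through the normal crossbred arrays. The calls numbered 4 without normal crossbred R1, 5 without normal crossbred R2, 5 without Tharparkar R1 and 6 without Tharparkar R2. Over all genes the share called, in either direction, went from 18.7% to between 4.72% and 5.59%. CD8A, CD7, FYN and IL7R were called in each of these 4 fits. With slide as a block 14 calls held, and CD163L1, CD2, LCK and LEF1 did not.

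Lame crossbred against normal Tharparkar differs in both lameness and breed. Here 3 genes rose (IL7R, FYN and CD7) and 2 fell (CD69 and CD5), against a background of 12.6% higher and 10.7% lower. As shares of the 30 listed genes, neither the rises nor the falls exceeded that background. The median was 0.43 against -0.01 over all genes, with 0.41 within slide 1 and 0.38 within slide 2. All lame arrays lay above both Tharparkar arrays for 15 genes (24.8% of all genes). Without Tharparkar R1 or without Tharparkar R2 the 1 gene still called was IL7R, while the share of all genes called went from 23.3% to 5.61% and 6.05%.

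The duplicates bear on all of these calls. When the RNA sample was a random block, with an estimated correlation of 0.82 between duplicates, 0 listed genes were called by limma in any comparison. That fit called few genes of any kind: 0.152%, 0.634% and 1.34% of all genes, in the order of the comparisons above. At an unadjusted p under 0.05 that fit gave 9 lower in lame against normal crossbred (5.32% of all genes) and 15 higher in normal crossbred against Tharparkar (7.9% of all genes). In lame against Tharparkar it gave 3 higher and 1 lower, against 7.39% and 6.96% of all genes, which is near the background. The lowest adjusted p among listed genes was 0.111 (CD8A), 0.0683 (IL7R) and 0.0685 (IL7R) in that order. Every rise and fall below is therefore a call over arrays. In bulk RNA, fewer T cells and less of a transcript in each T cell cannot be told apart.

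**Figure D2:**
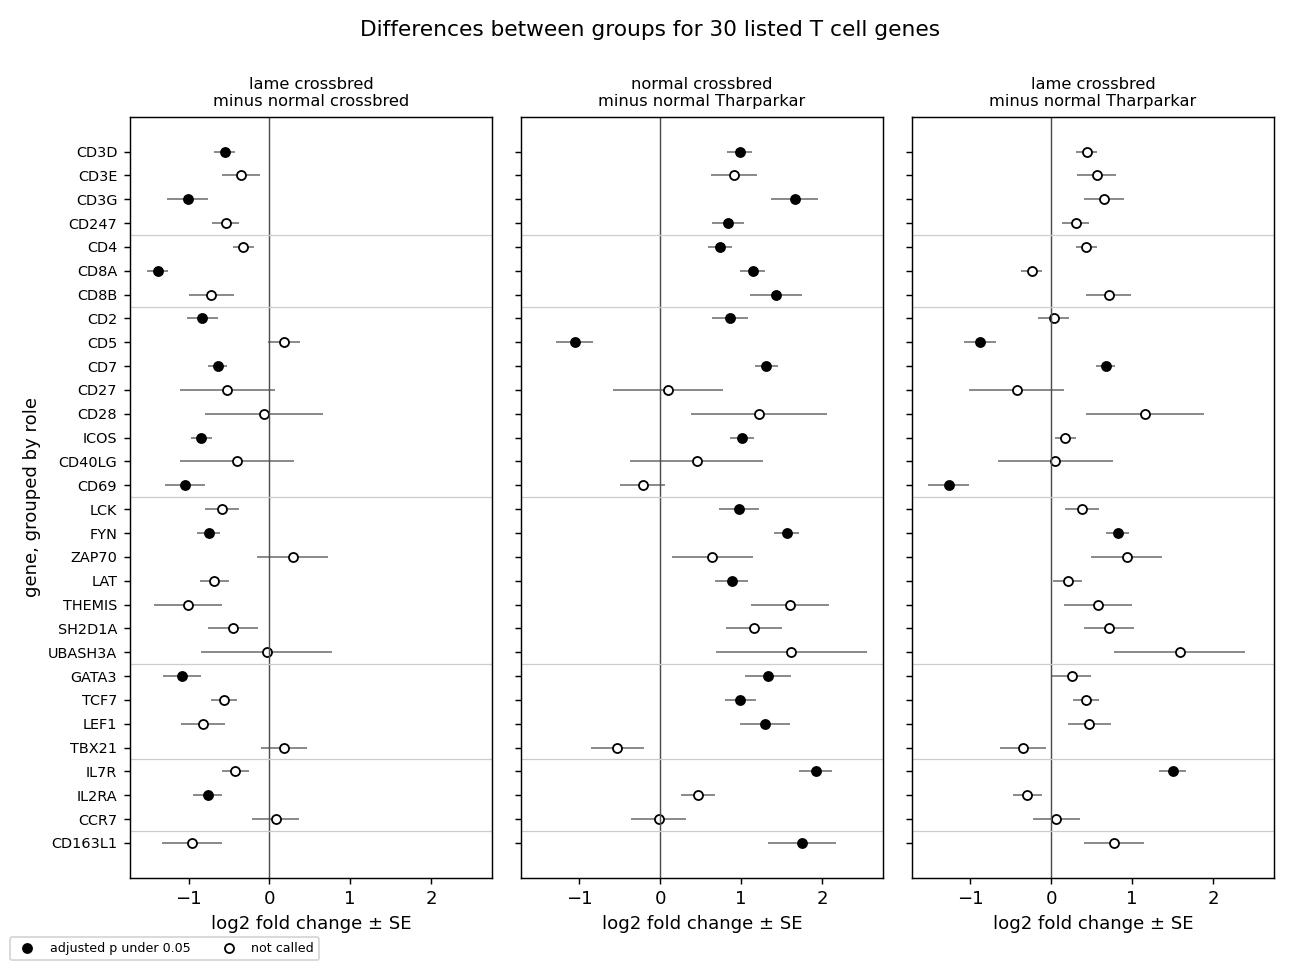
Log2 fold change with its standard error (limma, 8 arrays) for each of the 30 listed T cell genes in the 3 comparisons, with filled points for an adjusted p under 0.05 over all genes. Filled points lie left of 0 for 10 genes in the left panel and right of 0 for 17 in the middle panel, where CD5 is the 1 filled point on the left.

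Among the receptor chains, CD3G, CD3D and CD247 rose in normal crossbred against Tharparkar, and CD3G and CD3D fell in lame against normal crossbred. CD3G, the gamma chain of CD3, read 2.01 and 1.76 on the lame R1 arrays, 2.59 and 2.51 on the lame R2 arrays, 3.31 and 3.16 on the normal crossbred arrays and 1.63 and 1.51 on the Tharparkar arrays. The groups do not overlap, and lame R1 sits near Tharparkar. CD3G was 3.17-fold higher in normal crossbred than in Tharparkar (log2 fold change 1.66, SE 0.29, adjusted p = 0.00924) and 2.02-fold lower in lame than in normal crossbred (-1.01, SE 0.25, adjusted p = 0.0492). Its second probe gave 2.14 and -1.09 for the same differences. Another, dimmer probe was not well above background on either Tharparkar array, and there normal crossbred was at least 1.73-fold higher (adjusted p = 0.234 in the fit of all probes).

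CD3D, the delta chain, read 4.04, 4.00, 3.92 and 3.81 on the lame arrays R1_1, R1_2, R2_1 and R2_2, 4.47 and 4.50 on normal crossbred and 3.45 and 3.55 on Tharparkar. The 3 groups are separate, with the lame arrays in the middle. It was 1.98-fold higher in normal crossbred than in Tharparkar (0.98, SE 0.15, adjusted p = 0.00593) and 1.46-fold lower in lame (-0.55, SE 0.13, adjusted p = 0.0463). On its second probe the lame R1 arrays read -0.86 and -0.91, beside the Tharparkar values of -0.69 and -0.71, and the lame R2 arrays read 0.38 and 0.46. The brighter probe does not show that gap between the lame samples.

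CD247, the zeta chain, rose by 0.84 (SE 0.20, adjusted p = 0.0278) in normal crossbred against Tharparkar. Its values were 6.36, 6.34, 6.15 and 5.87 in lame, 6.78 and 6.66 in normal crossbred and 5.88 and 5.88 in Tharparkar, so that lame R2_2 lies level with Tharparkar. CD3E, the epsilon chain, was called in no comparison on its brighter probe. It read 0.29, 1.06, 0.28 and 0.48 in lame, 0.79 and 0.96 in normal crossbred and 0.06 and -0.12 in Tharparkar, and the 2 duplicates of lame R1 lie on either side of the normal crossbred values. Its second probe, well above background on all 8 arrays, had closer duplicates. It read -0.12, -0.14, 0.32 and 0.36 in lame, 0.86 and 0.83 in normal crossbred and -0.56 and -0.62 in Tharparkar. In the fit of all probes it passed for normal crossbred minus Tharparkar (1.44, SE 0.22, adjusted p = 0.0068) and for lame minus Tharparkar (0.70, SE 0.19, adjusted p = 0.0423), but not for lame minus normal crossbred (-0.74, SE 0.19, adjusted p = 0.0674). CD3E, CD3D and CD3G lie next to each other in the genome, with 0 protein-coding genes between them in the RefSeq table.

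Of the coreceptors, CD8A gave the lowest adjusted p of the list in lame against normal crossbred. It read 2.75, 2.87, 2.96 and 2.89 on the lame arrays, 4.26 and 4.22 on normal crossbred and 3.06 and 3.16 on Tharparkar. The normal crossbred arrays stand alone above the other 6. CD8A, the alpha chain of CD8 and a marker of cytotoxic T cells, was 2.60-fold lower in lame than in normal crossbred (-1.38, SE 0.13, adjusted p = 0.00148) and 2.20-fold higher in normal crossbred than in Tharparkar (1.14, SE 0.15, adjusted p = 0.00336). Lame against Tharparkar gave -0.24 (SE 0.13, adjusted p = 0.222), whose sign turned to 0.05 with normexp background correction. A second, dimmer CD8A probe was not well above background on either lame R1 array, where it read -4.75 and -4.57. It read -2.94 and -2.41 on lame R2, -2.01 and -2.07 on normal crossbred and -2.93 and -2.56 on Tharparkar.

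CD8B, the beta chain, which neighbours CD8A in the genome, read -0.80, -1.28, -0.72 and -0.37 in lame, 0.25 and -0.38 in normal crossbred and -1.53 and -1.47 in Tharparkar. Lame R2_2 lies level with the lower normal crossbred array, and the difference of -0.72 (SE 0.28) between these groups did not pass (adjusted p = 0.155). CD8B rose by 1.43 (SE 0.32, adjusted p = 0.0221) in normal crossbred against Tharparkar. Its second, dimmer probe, well above background on all 8 arrays, gave 0.48 there (SE 0.37, adjusted p = 0.423 in the fit of all probes) and did not pass. CD4, the coreceptor of helper T cells, which monocytes of some species also carry, read 0.77, 0.72, 0.56 and 0.56 in lame, 0.97 and 0.97 in normal crossbred and 0.23 and 0.22 in Tharparkar. The groups do not overlap. CD4 rose by 0.74 (SE 0.15, adjusted p = 0.0166) in normal crossbred against Tharparkar, and the lame difference of -0.32 from normal crossbred did not pass (SE 0.13, adjusted p = 0.188). Its other probes were dim. Of these, 1 was well above background on the 4 lame arrays and on none of the normal arrays. It passed the filter only through the group where it is high, so its excess there is no separate support. On it lame was at least 2.15-fold higher than normal crossbred (adjusted p = 0.121 in the fit of all probes). The mean of the CD4 probes, this one included, turned the difference to 0.56. Another CD4 probe was not well above background on either Tharparkar array. Its signal was at least 1.28-fold higher in normal crossbred (adjusted p = 0.00781 in the fit of all probes) and at least 2.04-fold higher in lame (adjusted p = 0.0017). On the brightest probe lame was 1.34-fold higher than Tharparkar, so the latter bound holds for the dim probe and not for the gene.

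The costimulatory and accessory receptors split into genes that followed the list and genes that did not. CD2, an adhesion receptor, CD7, an early T cell marker, and ICOS, an inducible costimulator, each fell in lame against normal crossbred and rose in normal crossbred against Tharparkar. ICOS read 0.11, 0.04, -0.06 and 0.05 on the lame arrays, 0.92 and 0.83 on normal crossbred and -0.12 and -0.16 on Tharparkar. It was 1.79-fold lower in lame (-0.84, SE 0.13, adjusted p = 0.00929) and 2.02-fold higher in normal crossbred than in Tharparkar (1.01, SE 0.15, adjusted p = 0.00464). The lame arrays lie close above Tharparkar on this probe, whereas the other 2 ICOS probes gave 1.00 and 1.41 for lame minus Tharparkar.

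CD7 read 2.07, 2.0, 2.10 and 2.05 in lame, 2.70 and 2.69 in normal crossbred and 1.43 and 1.35 in Tharparkar, with no overlap and with both lame samples alike. It was 1.56-fold lower in lame than in normal crossbred (-0.64, SE 0.12, adjusted p = 0.0208) and 1.59-fold higher than in Tharparkar (0.67, SE 0.12, adjusted p = 0.00922). CD2 read 0.78, 0.53, 1.08 and 1.07 in lame, 1.73 and 1.65 in normal crossbred and 0.87 and 0.80 in Tharparkar. Lame R1 lies below and lame R2 above Tharparkar, and the lame fall was by 0.83 (SE 0.19, adjusted p = 0.0370).

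CD69, an early activation marker that also holds lymphocytes in tissue, was low in the lame arrays against both normal groups. It read 0.31 and 0.43 on lame R1, 1.00 and 1.04 on lame R2, 1.75 and 1.73 on normal crossbred and 1.86 and 2.06 on Tharparkar. All 4 lame arrays lie below all 4 normal arrays. CD69 was 2.06-fold lower in lame than in normal crossbred (-1.04, SE 0.25, adjusted p = 0.0407) and 2.40-fold lower than in Tharparkar (-1.27, SE 0.25, adjusted p = 0.0113), and the normal groups differed by -0.22 (SE 0.28, adjusted p = 0.636). Other leukocytes express CD69 as well.

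CD5, a scavenger receptor family member that dampens receptor signalling, ran the other way on its brighter probe. That probe read 1.35, 0.90, 1.37 and 1.26 in lame, 1.23 and 0.85 in normal crossbred and 2.21 and 2.01 in Tharparkar. Both Tharparkar arrays lie above the other 6. CD5 was lower in normal crossbred than in Tharparkar (-1.06, SE 0.23, adjusted p = 0.0178) and in lame than in Tharparkar (-0.88, SE 0.20, adjusted p = 0.0180). Its second probe gave -0.06 and 0.97 for these differences, so the 2 probes disagree, and with the mean of both the lame difference became 0.04. Some B cells also express CD5.

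CD27, a costimulator of memory formation, CD28, the main costimulatory receptor, and CD40LG, the ligand by which helper T cells activate B cells, were called in no comparison. CD40LG read -2.67 and -2.92 on lame R1, -0.78 and -0.47 on lame R2, -1.16 and -1.46 on normal crossbred and -1.64 and -1.88 on Tharparkar. The lame samples lie on opposite sides of both normal groups. CD27 read -2.59 and -2.66 on lame R1, -0.74 and -0.93 on lame R2, -1.11 and -1.31 on normal crossbred and -1.26 and -1.35 on Tharparkar, again with the normal arrays between the lame samples. The CD28 probe was well above background on both normal crossbred arrays and on 1 lame array and on no Tharparkar array. This probe thus passed the filter only through normal crossbred, so its place above Tharparkar there is no separate support. It read -5.16, -5.96, -4.00 and -3.13 in lame, -4.40 and -4.60 in normal crossbred and -5.28 and -6.16 in Tharparkar, near the detection limit, and with normexp its differences from Tharparkar changed sign. CD28, CTLA4 and ICOS are neighbours in the RefSeq table, with 0 protein-coding genes between them.

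Among kinases and adaptors, FYN, a Src family kinase of the receptor, was separate in all 3 groups. It read 2.25, 2.39, 2.40 and 2.29 on the lame arrays, 2.99 and 3.17 on normal crossbred and 1.42 and 1.61 on Tharparkar. Both lame samples lie at the same level between the normal groups. FYN was 2.96-fold higher in normal crossbred than in Tharparkar (1.56, SE 0.16, adjusted p = 0.00123), 1.68-fold lower in lame than in normal crossbred (-0.75, SE 0.14, adjusted p = 0.0186) and 1.76-fold higher in lame than in Tharparkar (0.82, SE 0.14, adjusted p = 0.00684). A second probe gave 1.65, -0.94 and 0.71, and another, dim probe gave 0.82, 0.19 and 1.02.

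LCK, the kinase bound to CD4 and CD8, read 3.59, 3.78, 3.23 and 3.12 in lame, 4.12 and 3.92 in normal crossbred and 3.03 and 3.06 in Tharparkar. LAT, the adaptor that ZAP70 phosphorylates, read 3.45, 3.44, 3.93 and 3.71 in lame, 4.30 and 4.33 in normal crossbred and 3.48 and 3.39 in Tharparkar. Normal crossbred is highest for both genes, and lame R1 lies above lame R2 for LCK and below it for LAT. In normal crossbred against Tharparkar LCK rose by 0.97 (SE 0.25, adjusted p = 0.0328) and LAT by 0.88 (SE 0.20, adjusted p = 0.0242). Against normal crossbred the lame values did not pass (LCK -0.59, SE 0.21, adjusted p = 0.132; LAT -0.68, SE 0.18, adjusted p = 0.0545). Another LCK probe, with a lame mean of 3.28 against 3.43 on the probe used, did pass there in the fit of all probes (-0.95, SE 0.15, adjusted p = 0.0141), and the other 3 did not. Of 5 LCK probes 4 shared the sign in normal crossbred against Tharparkar, and of 3 LAT probes 1 went the other way in all 3 comparisons.

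ZAP70, the kinase that docks on the phosphorylated chains, read -0.35 and -0.06 on lame R1, 1.04 and 1.1 on lame R2, 0.18 and 0.11 on normal crossbred and -0.66 and -0.33 on Tharparkar. Lame R2 stands above every other array and lame R1 below normal crossbred, and no comparison was called. THEMIS, a regulator of receptor signalling in thymic selection, read -2.87, -3.16, -1.94 and -1.68 in lame, -1.47 and -1.33 in normal crossbred and -2.90 and -3.08 in Tharparkar. Its differences did not pass on this probe (normal crossbred minus Tharparkar 1.60, SE 0.48, adjusted p = 0.0585), and lame minus Tharparkar turned from 0.58 to -0.30 with normexp. Its second probe was not well above background on either Tharparkar array. The signal of that probe was at least 6.41-fold higher in normal crossbred (adjusted p = 0.000620 in the fit of all probes) and at least 3.59-fold higher in lame (adjusted p = 0.000581). The brighter probe gave less, 3.02-fold and 1.50-fold, so these bounds hold for that dim probe and not for the gene. Bounds of this kind, those of CD3G and CD4 included, compare the brighter group's mean with a floor on each dim array, which is the dimmest detected probe's value or, if higher, that of the dim probe itself. An adjusted p printed beside a bound comes from the fit of the measured values without this floor, so it does not test the bound.

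SH2D1A, the adaptor of SLAM receptors, read -1.96, -2.0, -1.09 and -1.11 in lame, -1.08 and -1.10 in normal crossbred and -2.23 and -2.28 in Tharparkar, with lame R2 level with normal crossbred. UBASH3A, a phosphatase family member that restrains receptor signalling, read -3.49, -4.15, -2.91 and -1.06 in lame, -3.49 and -2.26 in normal crossbred and -4.22 and -4.77 in Tharparkar. Its duplicates differed by 1.86 in lame R2 and by 1.22 in normal crossbred, more than for any other listed gene in those samples. Neither gene was called, and with normexp lame minus Tharparkar turned from 0.71 to -0.01 for SH2D1A and from 1.59 to -0.17 for UBASH3A.

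**Figure D3:**
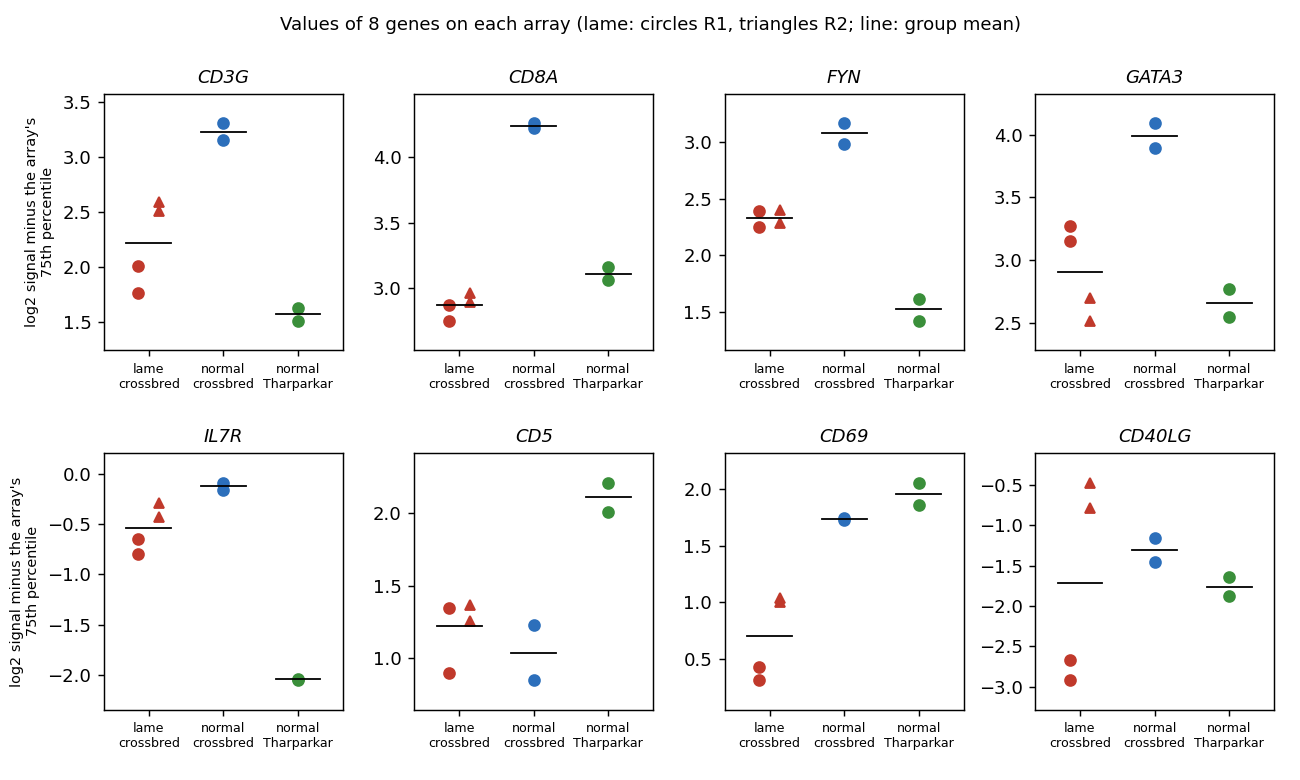
Level (log2 signal minus the array's 75th percentile) of 8 listed genes on each array, with lame R1 as circles, lame R2 as triangles and the group mean as a line; each panel has its own axis. CD3G, FYN and IL7R place the lame arrays between the normal groups, CD8A separates normal crossbred from the rest, CD5 separates Tharparkar from the rest, all lame arrays are lowest for CD69, and the lame samples lie on opposite sides of the normal arrays for CD40LG.

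Of the transcription factors, GATA3, LEF1 and TCF7, which direct T cell development, rose in normal crossbred against Tharparkar, and GATA3 fell in lame. GATA3 read 3.27 and 3.15 on lame R1, 2.52 and 2.70 on lame R2, 4.09 and 3.89 on normal crossbred and 2.77 and 2.55 on Tharparkar. Normal crossbred is above all other arrays, and lame R2 lies level with Tharparkar. GATA3 was 2.12-fold lower in lame than in normal crossbred (-1.08, SE 0.24, adjusted p = 0.0342) and 2.51-fold higher in normal crossbred than in Tharparkar (1.33, SE 0.28, adjusted p = 0.0169). Its second probe gave -1.93 (SE 0.55) and 1.50 (SE 0.63), which did not pass in the fit of all probes (adjusted p = 0.0824 and 0.147). On that probe lame R1 lay above lame R2 by 1.64.

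LEF1 read 0.59, 0.46, 1.26 and 1.28 in lame, 1.71 and 1.73 in normal crossbred and 0.44 and 0.42 in Tharparkar, and TCF7 read 1.45, 1.73, 1.61 and 1.50, then 2.02 and 2.25, then 0.99 and 1.30. Neither overlaps between groups. LEF1 rose by 1.29 (SE 0.31, adjusted p = 0.0278) and TCF7 by 0.99 (SE 0.19, adjusted p = 0.0119) in normal crossbred against Tharparkar. A second, dimmer TCF7 probe gave 0.30 there (SE 0.63, adjusted p = 0.784 in the fit of all probes) and did not pass. TBX21, the regulator of type 1 and cytotoxic lymphocytes, was called in no comparison and read 0.57 and 0.33 on lame R1, -0.27 and -0.35 on lame R2, 0.03 and -0.25 on normal crossbred and 0.48 and 0.36 on Tharparkar. It is one of the 2 genes, with CCR7, for which lame R1 was highest.

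IL7R, the receptor for the survival cytokine interleukin-7, gave the largest difference between the normal groups among the probes used. It read -0.65, -0.80, -0.29 and -0.43 on the lame arrays, -0.09 and -0.16 on normal crossbred and -2.04 and -2.05 on Tharparkar. The Tharparkar arrays stand far below the other 6. IL7R was 3.79-fold higher in normal crossbred (1.92, SE 0.20, adjusted p = 0.00137) and 2.83-fold higher in lame (1.50, SE 0.17, adjusted p = 0.00163) than in Tharparkar, on the single probe that matched. IL2RA, the alpha chain of the interleukin-2 receptor, read 0.72, 0.61, 1.12 and 0.88 in lame, 1.49 and 1.71 in normal crossbred and 1.14 and 1.12 in Tharparkar. It fell by 0.76 (SE 0.18, adjusted p = 0.0395) in lame against normal crossbred, and its difference between the normal groups was 0.46 (SE 0.21, adjusted p = 0.162).

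CCR7, which guides naive T cells to lymph nodes, was called in no comparison on its brightest probe, where it read 0.46, 0.99, -0.02 and 0.31 in lame, 0.17 and 0.54 in normal crossbred and 0.16 and 0.60 in Tharparkar. All groups overlap, and differences lay between -0.02 and 0.08. A second probe read 0.27 and 0.20 on Tharparkar and between -1.58 and -1.09 on the other 6 arrays, a difference of -1.60 for normal crossbred minus Tharparkar. The last probe gave -0.05 there, so 1 of the 3 probes sets Tharparkar apart.

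CD163L1 stands for the WC1 scavenger receptors of gamma-delta T cells, and its probes may also read near-identical WC1 copies. It read 0.78 and 0.63 on lame R1, 1.77 and 1.73 on lame R2, 2.36 and 2.02 on normal crossbred and 0.35 and 0.54 on Tharparkar. All groups are separate, with lame R1 nearer to Tharparkar and lame R2 nearer to normal crossbred. It rose by 1.75 (SE 0.42, adjusted p = 0.0288) in normal crossbred against Tharparkar, and the lame difference of -0.96 from normal crossbred did not pass (SE 0.37, adjusted p = 0.151). For normal crossbred minus Tharparkar its dimmer probes gave 1.73 (SE 0.57, adjusted p = 0.0799) and 0.13 (SE 0.72, adjusted p = 0.922) in the fit of all probes, and neither passed. Of the other gamma-delta markers, the constant region genes TRDC, TRGC1 and TRGC2 and the factor SOX13 had no matching probe, and ART1 fell where CD163L1 rose.

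The lame RNA samples were not alike for the listed genes, though the median gap between them, 0.50, was that of all genes. Lame R1 was below lame R2 by at least 1 on the log2 scale, with no overlap of arrays, for 7 of 30 genes (CD40LG, CD28, UBASH3A, CD27, ZAP70, THEMIS and CD163L1), against 9.05% of all genes. It was above by as much for 0 listed genes, against 5.93% of all genes. Lame R2 exceeded lame R1 4.49-fold for CD40LG, 3.46-fold for CD27 and 2.42-fold for ZAP70. Over probes, 15 of 59 were lower in lame R1 by this measure, against 13.2% of all probes kept, and 2 of 59 were higher, a probe of GATA3 and one of LAT (4.55% of all probes kept). These 15 hold the second probes of CD3D and CD8A, whose brighter probes differ between lame R1 and lame R2 by 0.15 and -0.12. With 1 RNA sample each, these are descriptions with no test, and lame R2 includes the array that was brighter than the rest.

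Against normal crossbred, lame R1 had a median log2 difference of -0.83 over the listed genes and lame R2 one of -0.49, and against Tharparkar these were 0.28 and 0.41. Over all genes the medians for lame R1 and lame R2 were 0.05 and -0.16 against normal crossbred, and 0.08 and -0.09 against Tharparkar. The samples fell on opposite sides of normal crossbred for 7 of 30 genes, against 40.5% of all genes: CD27, CD28, CD40LG, ZAP70 and UBASH3A, with lame R2 higher, and TBX21 and CCR7, with lame R1 higher. The CD3 chains, CD4, CD8A, CD7, ICOS, LCK, FYN, LAT, TCF7 and IL7R were below normal crossbred in both.

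**Figure D4:**
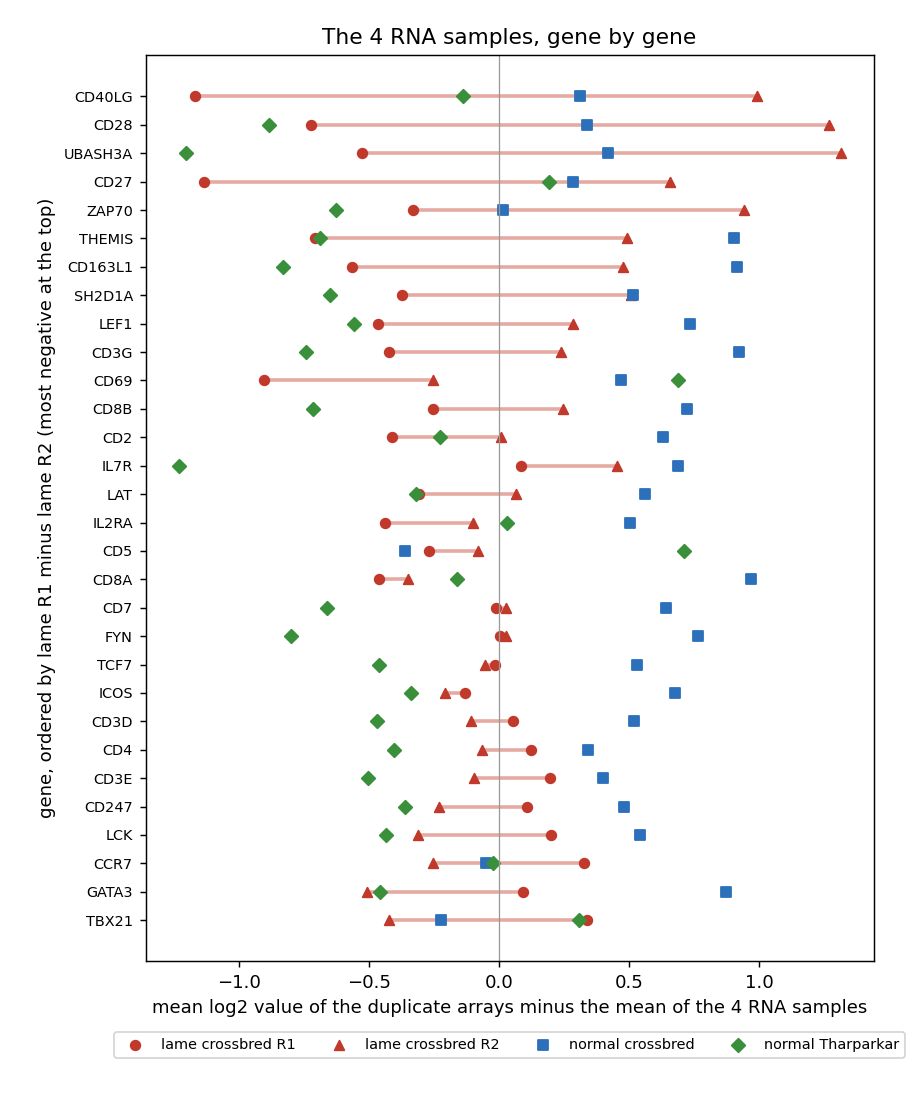
Mean log2 value of the duplicate arrays of each of the 4 RNA samples, minus the mean of the 4, for the 30 listed genes, ordered by lame R1 minus lame R2. The bar between the lame samples is widest for CD40LG (-2.17) and nearly closed for FYN (-0.02) and CD7 (-0.04), and the normal crossbred squares lie furthest right for 21 genes.

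Probes of a gene did not always tell the same story. Of 19 listed genes with at least 2 probes kept, all probes shared the sign for 15 in lame minus normal crossbred, for 17 in normal crossbred minus Tharparkar and for 10 in lame minus Tharparkar. The exceptions were CD4, FYN, LAT and TBX21 in the first comparison and LAT and LCK in the second. In the third they were CCR7, CD163L1, CD5, CD8B, GATA3, IL2RA, LAT, LCK and TCF7.

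Of 80 other genes of T cell receptor signalling and T cell state, 64 were tested. In lame against normal crossbred 14 fell and 0 rose, with a median of -0.27, where 6.33% of all genes fell and 3.28% rose. RHOH, a GTPase that recruits ZAP70 (-2.10, SE 0.22), TOX, a factor of T cell development and exhaustion (-2.01, SE 0.18), the cytokine IFNG (-1.52, SE 0.18) and the kinase TXK (-1.44, SE 0.33) fell most. In normal crossbred against Tharparkar 17 rose and 3 fell, with a median of 0.40, where 11.8% of all genes rose and 6.88% fell. TOX (2.47, SE 0.21), IFNG (2.18, SE 0.20), the inhibitory receptor PDCD1 (1.87, SE 0.17) and the chromatin organiser SATB1 (1.57, SE 0.37) rose most, and SLA, an adaptor that lowers receptor levels (-1.04, SE 0.21), BCL10 (-0.85, SE 0.22) and STAT5B (-0.55, SE 0.15) fell. In lame against Tharparkar 10 rose and 9 fell, with a median of 0.08. Of all genes 12.6% rose and 10.7% fell there, so these counts are near the background. There the adaptor GRAP2 (1.49, SE 0.32), the inhibitory receptor HAVCR2 (1.28, SE 0.24), S1PR1, which lets lymphocytes leave lymph nodes (1.20, SE 0.29), and STAT4 (0.99, SE 0.27) rose most. RHOH (-1.69, SE 0.22), BCL10 (-1.09, SE 0.19) and SLA (-0.99, SE 0.18) were among those that fell.

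Markers of other cells also differed between the groups, and most of these lists did not follow the order of the T cell genes. The summed level of a list adds its genes on the linear scale, each relative to the array's 75th percentile, so bright genes weigh most. For the 30 listed T cell genes it was 253 to 267 on normal crossbred, 152 to 174 on lame and 138 on both Tharparkar arrays. NK and cytotoxic markers, many of which CD8 and gamma-delta T cells share, followed the same order between the normal groups, with 154 to 167 on normal crossbred, 51.1 to 95.7 on lame and 64.1 to 68.9 on Tharparkar. Of 13 tested, 6 fell in lame against normal crossbred (NKG7 -1.44, SE 0.12; NCR3 -1.28, SE 0.21), 7 rose in normal crossbred against Tharparkar (KLRD1, whose probe was not well above background on either Tharparkar array, at least 2.23-fold, adjusted p = 0.0116) and 4 rose in lame against Tharparkar. Their medians were -0.95, 1.43 and 0.34. GZMK had no matching probe. For these counts and those of the lists below, 3.28% of all genes rose and 6.33% fell in lame against normal crossbred. The shares were 11.8% and 6.88% in normal crossbred against Tharparkar, and 12.6% and 10.7% in lame against Tharparkar.

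Granulocyte markers were measurable in these mononuclear cells, and 14 of 15 were tested. Their summed level was 155 to 203 on lame, 232 to 244 on normal crossbred and 255 to 266 on Tharparkar. S100A8 and S100A12, at 5.99 to 6.74, were the brightest of the list and weigh most in this sum, and neither was called in any comparison. In lame against normal crossbred 8 fell and 0 rose (CXCR2 -3.33, SE 0.34, with 2 of 4 lame arrays well above background; CXCR1 -3.82, SE 0.61; TGM3 -2.96, SE 0.13). Not called there were LTF (-2.36, SE 0.65), CATHL2 (-1.18, SE 0.83), S100A8 (-0.29, SE 0.16), S100A12 (-0.11, SE 0.17), PGLYRP1 (0.13, SE 0.94) and S100A9 (0.20, SE 0.35). In normal crossbred against Tharparkar 1 rose and 2 fell, and in lame against Tharparkar 8 fell. Monocyte markers summed to 74.2 to 95.4 on lame, 60.2 to 60.6 on normal crossbred and 55.4 to 57.8 on Tharparkar. Of 11 tested, 4 rose and 1 fell in lame against normal crossbred (C1QB 1.55, SE 0.15; CD14 -1.56, SE 0.31), 1 rose and 2 fell between the normal groups, and 4 rose and 1 fell in lame against Tharparkar. MRC1 had no matching probe, and FCGR1A and SIRPA did not pass the filter.

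B cell markers summed to 106 to 167 on lame, 156 to 159 on normal crossbred and 183 to 201 on Tharparkar, with 9 of 15 tested. CD79A was called in no comparison, MS4A1 (-0.93, SE 0.16) fell in lame against Tharparkar, and CD22, CD79B and PAX5 had no matching probe. In all, 0 of the 9 changed in lame against normal crossbred, 2 fell in normal crossbred against Tharparkar, and 1 rose and 2 fell in lame against Tharparkar. Platelet markers summed to 19.1 to 25.3 on lame, 17.2 to 18.1 on normal crossbred and 10.6 to 11.3 on Tharparkar (6 of 14 tested). Of these 6, 1 rose in lame against normal crossbred (VWF 0.89, SE 0.20), 3 rose in normal crossbred against Tharparkar (PF4 0.73, SE 0.16) and 4 rose in lame against Tharparkar. Erythroid markers summed to 12.4 to 22.1 on lame, 7.88 to 9.09 on normal crossbred and 6.91 to 7.41 on Tharparkar (7 of 11 tested), with 1 risen in the first comparison, 1 risen and 1 fallen in the second and 3 risen in the third. The part of any of these cells in the T cell gene differences was not tested.

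**Figure D5:**
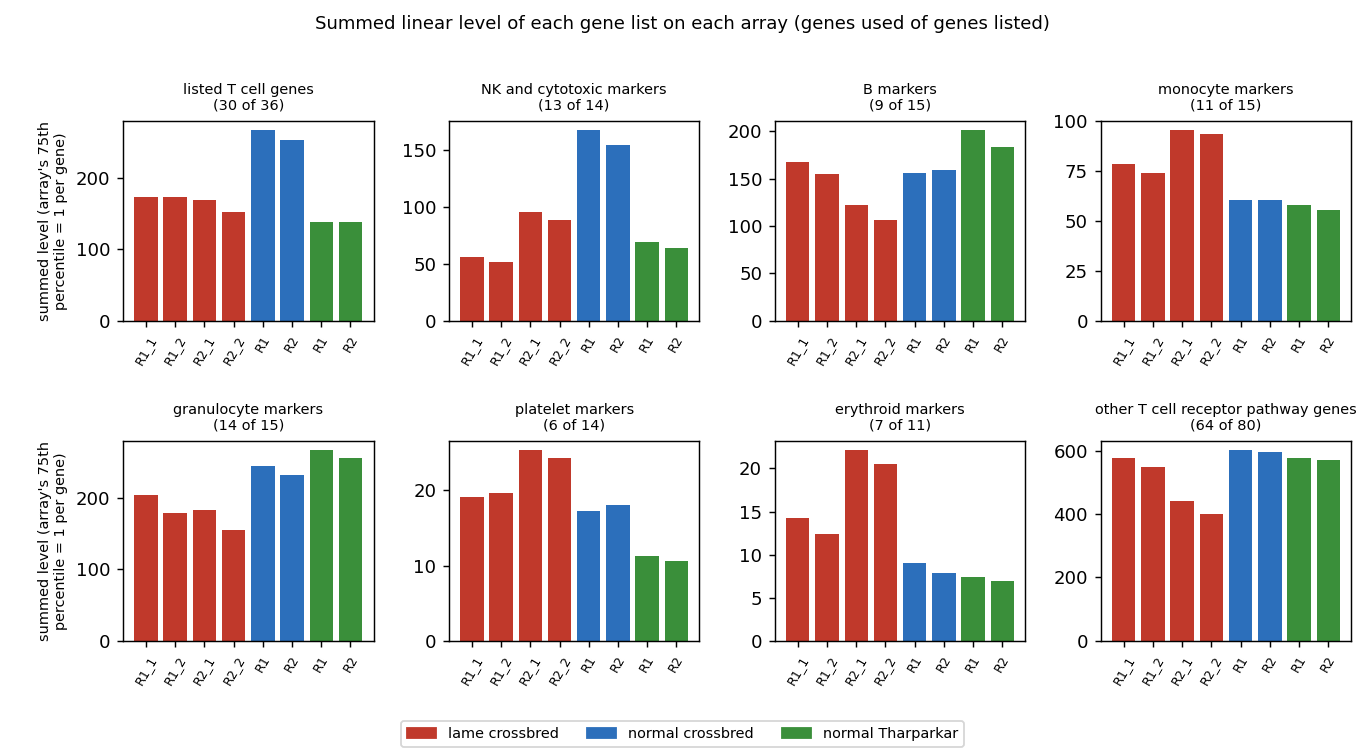
Summed linear level of each gene list on each of the 8 arrays (bars start at 0, each gene relative to the array's 75th percentile; panels have their own axes). The listed T cell genes and the NK and cytotoxic markers are highest on the 2 normal crossbred arrays, the granulocyte markers are lowest on lame arrays, and the monocyte and erythroid markers are highest on lame arrays.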

How the data were processed

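The deposited scanner files hold the intensity of each spot. Background subtraction and detrending gave the processed signal in Agilent Feature Extraction 12.0.3.1, per the file headers (11.5.1.1 per the submitters' processing notes). A table of log2 values was deposited as well. Each of its columns followed the log2 processed signal after centring on the array's 75th percentile and on the probe's median over arrays (correlation at least 0.9999982 over 43618 probes), so a higher value means a brighter spot. Its scale and centring are not stated, and the column medians were 0.0, -0.12, 0.0 and 0.88 for lame R1_1, R1_2, R2_1 and R2_2, -0.07 and -0.12 for normal crossbred and 0.02 and 0.09 for Tharparkar.

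Here, log2 processed signals of 43653 noncontrol probes were centred on each array's 75th percentile, and 35 probes marked as outliers were left out. Names came from RefSeq's ARS-UCD2.0 table for the 27054 probes with exactly 1 match and from the file for 16599. No coordinates or sequences are given, because the array was annotated on another assembly. The brightest passing probe stood for a gene. The test was limma's (version 3.58.1, R 4.3.3), with lmFit, eBayes and 3 group means. It was 2-sided, with 5 residual and 2.35 prior degrees of freedom. A run of this fit on simulated data drew all arrays as independent, unlike the duplicates here, so it does not vouch for the calls. The last number in the titles matched the slide in the file headers (2 slides), and deviations from group means correlated at 0.21 to 0.27 between groups for arrays with the same number, so slide was tried as a block. The number of arrays limits the precision. The genes and lists were chosen with earlier results of these data known. Named outside the list are, per comparison and direction, up to 4 receptor pathway genes with the largest change and up to 3 markers of a cell type. Granulocyte markers not called in lame against normal crossbred are named as well. Some genes that this rule or these lists hold are not reported here by name.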

Additional observations from a re-analysis of the deposited data

How the results depend on the processing

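Medians of the listed genes kept their sign under each alternative: the lame minus normal crossbred median ran from -0.84 (array weights) and -0.83 (lame R1 alone) to -0.49, that of normal crossbred minus Tharparkar from 0.83 (normexp) to 1.07 (quantile normalization), and that of lame minus Tharparkar from 0.27 (normexp) and 0.28 (lame R1 alone) to 0.48. With probes of a gene averaged the last 2 were 1.06 and 0.29. The normal crossbred minus Tharparkar median was 0.97 with no filter on dim probes and 0.98 with probes well above background on all 8 arrays. Leaving out 1 array gave medians of -0.68 to -0.58, 0.98 to 1.00 and 0.38 to 0.44.

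Numbers of calls moved far more. Leaving out 1 array gave 1 to 10, 4 to 21 and 1 to 7 calls in the order lame minus normal crossbred, normal crossbred minus Tharparkar and lame minus Tharparkar. Without lame R2_2, the brightest array, they were 9, 20 and 7. With no filter on dim probes they were 1, 7 and 2. Taking the RNA sample as a random block gave 0 in each comparison, where 0.152%, 0.634% and 1.34% of all genes were called. Averaging duplicates by the first number of the titles left 1 value for each normal group, so its calls are not counted here. Averaging by the last number, which mixes the lame samples, gave 22 in either comparison with lame, where 40.5% and 55.8% of all genes were called. Lame minus normal crossbred had 4 calls with quantile normalization, 6 with normexp, 5 with probes averaged and 4 with the replicate block. Of all genes these settings called 9.35%, 4.58%, 9.53% and 6.62%, against 9.61% in the reported fit. The same comparison had 25 calls with array weights, 23 with lame R1 alone and 19 with lame R2 alone. These last 3 settings called 48.3%, 47.3% and 46.2% of all genes. Lame minus Tharparkar had 9 with quantile normalization (21.6% of all genes), 16 with array weights, 15 with lame R1 alone and 21 with lame R2 alone. The last 3 called 56.0%, 55.4% and 58.1% of all genes, so 16 and 15 of 30 are no more than the background. Normexp used the median spot signal, as the files hold no mean signal. Blocking on the replicate number, which is the slide, left all 5 calls of lame minus Tharparkar, where 19.2% of all genes were called.

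Signs that turned were those of differences that had not passed, except CD5 in lame minus Tharparkar (0.04 with the mean of its probes); the cause was not tested. With normexp, normal crossbred minus Tharparkar became 0.08 for CCR7, -0.17 for CD27, -0.61 for CD28 and -0.12 for UBASH3A. With normexp, lame minus Tharparkar became -0.57 for CD28, -0.17 for CD40LG, 0.05 for CD8A, -0.01 for SH2D1A, -0.30 for THEMIS and -0.17 for UBASH3A, and lame minus normal crossbred 0.04 for CD28. With probes of a gene averaged, lame minus Tharparkar became -0.40 for CCR7, -0.09 for GATA3 and -0.01 for LAT, and lame minus normal crossbred 0.56 for CD4 and -0.05 for TBX21. With array weights, lame minus Tharparkar became -0.18 for CD2 and -0.94 for CD40LG, and lame minus normal crossbred -0.26 for ZAP70. With lame R1 alone, lame minus Tharparkar became -0.18 for CD2, -1.03 for CD40LG, 0.03 for TBX21 and -0.02 for THEMIS, and lame minus normal crossbred -0.35 for ZAP70. With lame R2 alone, lame minus normal crossbred became -0.21 for CCR7, 0.37 for CD27, 0.93 for CD28, 0.68 for CD40LG, -0.20 for TBX21 and 0.89 for UBASH3A, and lame minus Tharparkar -0.23 for CCR7, 0.47 for CD27 and -0.05 for GATA3. Leaving out 1 array gave, in lame minus normal crossbred, -0.11 to 0.26 for CCR7, -0.54 to 0.40 for CD28, -0.81 to 0.00 for CD40LG, -0.01 to 0.37 for CD5 and -0.64 to 0.59 for UBASH3A. It gave, in lame minus Tharparkar, -0.16 to 0.27 for CCR7, -0.04 to 0.14 for CD2 and -0.36 to 0.46 for CD40LG, and in normal crossbred minus Tharparkar -0.24 to 0.20 for CCR7.

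Signal over background limits CD28, UBASH3A and dimmer probes of CD3G, CD4, CD8A, FYN, ICOS and THEMIS, which lie near the detection limit on some arrays. The lame R2 arrays stood apart in limma's array weights, with 0.113 for R2_1 and 0.0797 for R2_2, where the other arrays had 1.43 to 2.75. With 1 RNA sample in each normal group, the spread between cows is unknown.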
